A study of Mus musculus with 4 samples.

Results

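The annexins described here are the 9 genes Anxa1, Anxa2, Anxa3, Anxa4, Anxa5, Anxa6, Anxa7, Anxa8 and Anxa11, taken by symbol from the 24421 gene symbols of a read count table. They were measured by bulk RNA sequencing in fibro-adipogenic progenitors (FAPs), stromal cells of skeletal muscle, sorted by their surface DPPIV into DPPIV- FAPs and DPPIV+ FAPs. Each of 2 wild-type mice gave 1 library of either kind, so that n = 2 mice per cell type and each DPPIV+ library has its DPPIV- partner from the same animal. Both mice had received the CSF1R inhibitor PLX73086, which depletes macrophages, for 3 weeks and had then been left without it for 3 days, so every library comes from treated muscle and no untreated FAPs were compared. FAPs were gated as CD31- CD45- Sca1+ cells. The labels name the tibialis anterior as the tissue, but in the study's methods muscle came from both hindlimbs, and the sex and age of these animals are not given in the sources used here.

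Annexins are cytosolic proteins that bind negatively charged phospholipids, above all phosphatidylserine, when calcium rises. A conserved core carries the calcium and membrane binding, and a variable N-terminal tail sets each member apart by the partners it binds, such as S100 proteins or penta-EF-hand proteins. In muscle and stroma they are known for resealing torn plasma membrane, for membrane traffic and, when released, for signals that end inflammation (Anxa1) and for plasminogen activation at the cell surface (Anxa2).

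The 4 libraries held 18240110 to 20879405 reads counted on genes, so that a count of 3 reads stood at 0.144 to 0.164 CPM before scaling (CPM is the reads of a gene scaled to a common library size, here by edgeR's TMM method). Dpp4, the gene that encodes the sorting marker, had in mouse 1 and then mouse 2 a count of 1879 and 776 in the DPPIV- libraries and of 13106 and 10476 in the DPPIV+ libraries. The order of the sorted fractions held in both animals. The FAP markers Pdgfra, Ly6a, Cd34, Dcn, Lum and Col1a1 summed to 28662 to 36404 CPM per library. Against this, 4 satellite cell markers summed to 1.37 to 1.62 CPM. Mesothelial (0.256 to 1.78 CPM) and neutrophil markers (0.0555 to 1.00 CPM) were also low. Sums were higher for, among others, tenocyte (1798 to 3767 CPM), macrophage (166 to 294 CPM) and mural cell markers (51.2 to 123 CPM). Of the FAP markers, 2 were higher and 4 lower in DPPIV+ FAPs, beside 15.9% and 17.2% of all genes tested.

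All 9 annexins passed the filter of 2 CPM in at least 2 libraries, which left 11588 genes to test. DPPIV+ FAPs had more Anxa3, Anxa1 and Anxa8 RNA than DPPIV- FAPs and less Anxa5, Anxa11 and Anxa6 RNA, and Anxa2, Anxa4 and Anxa7 did not pass the test. Each cell type was compared within mouse by edgeR's quasi-likelihood F test with Benjamini-Hochberg adjustment over all genes tested and a threshold of 0.05. So 3 of the 9 annexins (33.3%) were higher in DPPIV+ FAPs, beside 15.9% of all genes tested. A further 3 of 9 (33.3%) were lower, beside 17.2% of all genes. The median log2 fold change of the 9 was 0.12, and that of all genes was -0.00. For 8 of the 9 (88.9%), both DPPIV+ libraries lay on one side of both DPPIV- libraries, which held for 56.3% of all genes, and Anxa2 was the exception. For all 9, called or not, the log2 ratio had the same sign in both mice, as it did for 72.9% of all genes. In this bulk RNA, fewer cells of a kind and less RNA per cell cannot be told apart.

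**Figure D1:**
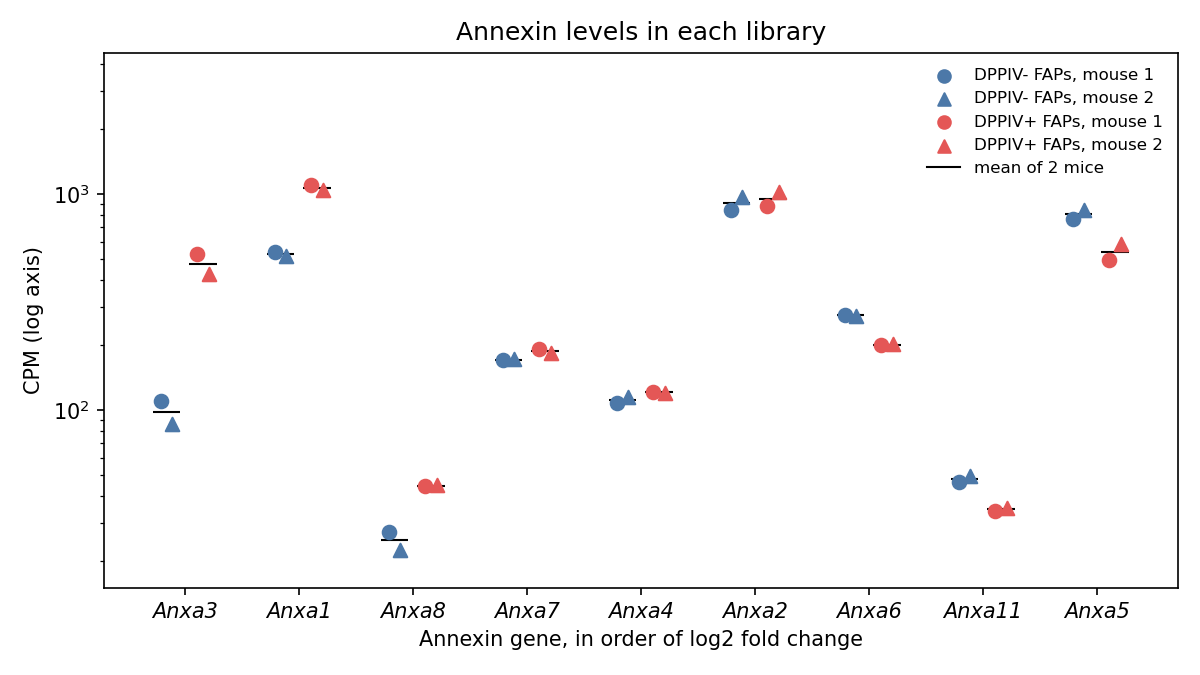
CPM (log axis) of the 9 annexins in each of the 4 libraries, with DPPIV- and DPPIV+ FAPs of mouse 1 and mouse 2 as separate points and a short line at each mean of 2 mice. The points of Anxa3 are the farthest apart, with 110 and 86.3 CPM in DPPIV- FAPs against 525 and 427 in DPPIV+ FAPs, and those of Anxa2 overlap.

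Among the annexins, Anxa3 differed most. Anxa3 is an annexin known for a role in the fusion of granules in neutrophils and for its expression in several stromal and epithelial cells. It lies on the plus strand of chromosome 5 at 96793339 to 96845966 (GRCm38). Its level was 110 CPM in mouse 1 and 86.3 CPM in mouse 2 in DPPIV- FAPs, and 525 and 427 CPM in DPPIV+ FAPs. Both DPPIV+ libraries were far above both DPPIV- libraries, and mouse 1 was higher than mouse 2 in either cell type. The means were 98.1 ± 16.6 and 476 ± 69.3 CPM (SD, n = 2), a 4.86-fold difference. Its log2 fold change was 2.28 with a standard error (SE) of 0.07 (adjusted p = 5.88e-213, edgeR), and the log2 ratio was 2.26 in mouse 1 and 2.30 in mouse 2. The size of that change exceeded 98.6% of all genes tested. Neutrophil markers were too low to test: Camp had 0 reads in every library, Ly6g was not analysed here, and Mpo, Ngp and Camp summed to 0.0555 to 1.00 CPM. The neutrophil genes S100a8 (20 and 25 reads in the DPPIV- libraries, 13 and 3 in the DPPIV+ libraries) and S100a9 (36 and 38, against 31 and 9) were also under the filter.

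Anxa1, a ligand of formyl peptide receptors when secreted and a gene long known to respond to glucocorticoids, was 2.03-fold higher in DPPIV+ FAPs. It is on the minus strand of chromosome 19 at 20373428 to 20390944. With mouse 1 given first, the levels were 541 and 515 CPM in DPPIV- FAPs, and 1095 and 1044 CPM in DPPIV+ FAPs. The spread between mice was small beside the gap between cell types, with means of 528 ± 18.3 and 1069 ± 36.5 CPM (SD, n = 2). The log2 fold change was 1.02 (SE 0.07, adjusted p = 4.28e-45, edgeR), and it was 1.02 in each mouse. Reads of its receptors were almost lacking: Fpr1 had 0 and 1 reads in DPPIV- FAPs and 1 and 0 in DPPIV+ FAPs, Fpr2 had 0 to 3, and Fpr3 had 0 in every library. A count of 0 allows up to 0.164 CPM in the shallowest library, and, as the reads carry no molecular identifiers, such limits cover counting error only.

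Anxa8, a member best known from epithelia, was the third to rise and one of the lowest in level. It lies on the plus strand of chromosome 14 at 34085981 to 34100571. Its level was 27.2 and 22.4 CPM in DPPIV- FAPs and 44.2 and 44.6 CPM in DPPIV+ FAPs. The DPPIV+ libraries were nearly equal, whereas the DPPIV- libraries differed by more, at means of 44.4 ± 0.318 and 24.8 ± 3.39 CPM (SD, n = 2). The log2 fold change was 0.84 (SE 0.08, adjusted p = 9.82e-22, edgeR), with 0.70 in mouse 1 and 0.99 in mouse 2.

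Anxa5, Anxa11 and Anxa6 were lower in DPPIV+ FAPs. Anxa5 is the annexin that, as a labelled protein, is used to stain phosphatidylserine on dying cells. It is on the minus strand of chromosome 3 at 36448923 to 36475894. It was listed at 765 and 845 CPM in DPPIV- FAPs and at 493 and 583 CPM in DPPIV+ FAPs. Mouse 2 had the higher level in both cell types, and the cell types did not overlap. The means were 805 ± 56.8 and 538 ± 64.2 CPM (SD, n = 2), so that the level was 1.50-fold lower in DPPIV+ FAPs. On the log2 scale the fold change was -0.59 (SE 0.07, adjusted p = 6.56e-16, edgeR), with -0.64 and -0.54 in the mice.

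Anxa6 is the member with a doubled core and a known part in the repair cap that forms over a lesion of the muscle fibre membrane. It lies on the minus strand of chromosome 11 at 54979108 to 55033445. Its level was 275 and 273 CPM in DPPIV- FAPs and 199 and 202 CPM in DPPIV+ FAPs. The mice were nearly equal within each cell type, and the DPPIV+ mean of 201 ± 2.51 CPM lay below the DPPIV- mean of 274 ± 1.37 CPM (SD, n = 2). The log2 fold change was -0.45 (SE 0.07, adjusted p = 2.75e-10, edgeR), with -0.47 and -0.43 in the mice.

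Anxa11, whose long N-terminal tail binds the penta-EF-hand protein Pdcd6 (ALG-2) and which is known for tethering RNA granules to lysosomes, lies on the plus strand of chromosome 14 at 25842156 to 25886804. It had 46.2 and 49.3 CPM in DPPIV- FAPs and 34.1 and 35.1 CPM in DPPIV+ FAPs. Again the cell types did not overlap, at means of 47.7 ± 2.24 and 34.6 ± 0.676 CPM (SD, n = 2). The log2 fold change was -0.46 (SE 0.08, adjusted p = 3.27e-08, edgeR), with -0.44 and -0.49 in the mice. The value is uncertain, since stretches of 657 and 602 bases of Anxa11 transcripts are identical to the pseudogenes Gm2260 and Gm2274, which were not analysed here. Against a null of a 1.5-fold change, edgeR's test called Anxa3, Anxa1 and Anxa8 but not Anxa5, Anxa6 or Anxa11, whose adjusted p was then 1.

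**Figure D2:**
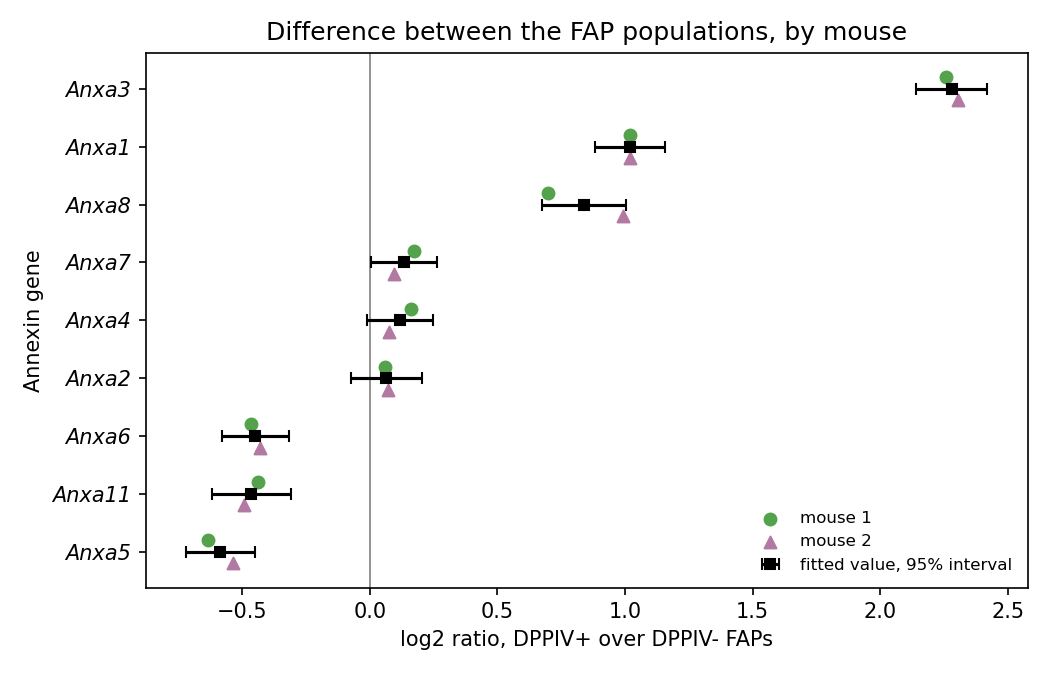
Log2 fold change of DPPIV+ over DPPIV- FAPs for each annexin from the fit with its 95% confidence interval, and the log2 ratio within mouse 1 and mouse 2 as points. The intervals of Anxa3, Anxa1 and Anxa8 lie above 0 with both mice, those of Anxa5, Anxa6 and Anxa11 lie below 0, and those of Anxa2 and Anxa4 span 0.

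Anxa2, Anxa7 and Anxa4 did not pass the test. Anxa2 pairs with S100a10 in a complex at the membrane that binds plasminogen and its activator. It is on the plus strand of chromosome 9 at 69453620 to 69491795, and had 842 and 972 CPM in DPPIV- FAPs and 878 and 1019 CPM in DPPIV+ FAPs. The spread between mice was wider than the gap between cell types, and the libraries overlapped. Its log2 fold change was 0.07 (SE 0.07, adjusted p = 0.544, edgeR), and the 95% interval of the difference ran from -4.93% to 15.1%.

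Anxa7, known for a long tail that binds the penta-EF-hand protein sorcin (Sri), is on the minus strand of chromosome 14 at 20455260 to 20480133. It had 171 CPM in both DPPIV- libraries and 192 and 183 CPM in DPPIV+ FAPs. The DPPIV+ libraries were both higher, but the log2 fold change of 0.13 (SE 0.07) did not pass (adjusted p = 0.116, edgeR). Its interval, not adjusted for the number of genes, ran from 0.207% to 20.1%. Anxa4, which is abundant in many epithelia and is on the minus strand of chromosome 6 at 86736840 to 86793584, had 108 and 114 CPM in DPPIV- FAPs and 120 CPM in both DPPIV+ libraries. The gap was again small, with a log2 fold change of 0.12 (SE 0.07, adjusted p = 0.170, edgeR) and an interval from -0.730% to 18.7%.

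Of the annexins outside the 9, Anxa9 had 53 and 64 reads in DPPIV- FAPs and 60 and 56 in DPPIV+ FAPs, at a log2 fold change of 0.15 (SE 0.25, adjusted p = 0.719, edgeR). Anxa10 and Anxa13 had 0 reads in every library. Exons of Anxa2, Anxa3, Anxa4 and Anxa11 overlap other annotated genes by 75 to 113 bases. Those neighbours (Gm16144, Gm42603, Gm44036 and Anxa11os) were not analysed here, and the strand setting of the counting is not given in the sources used here.

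**Figure D3:**
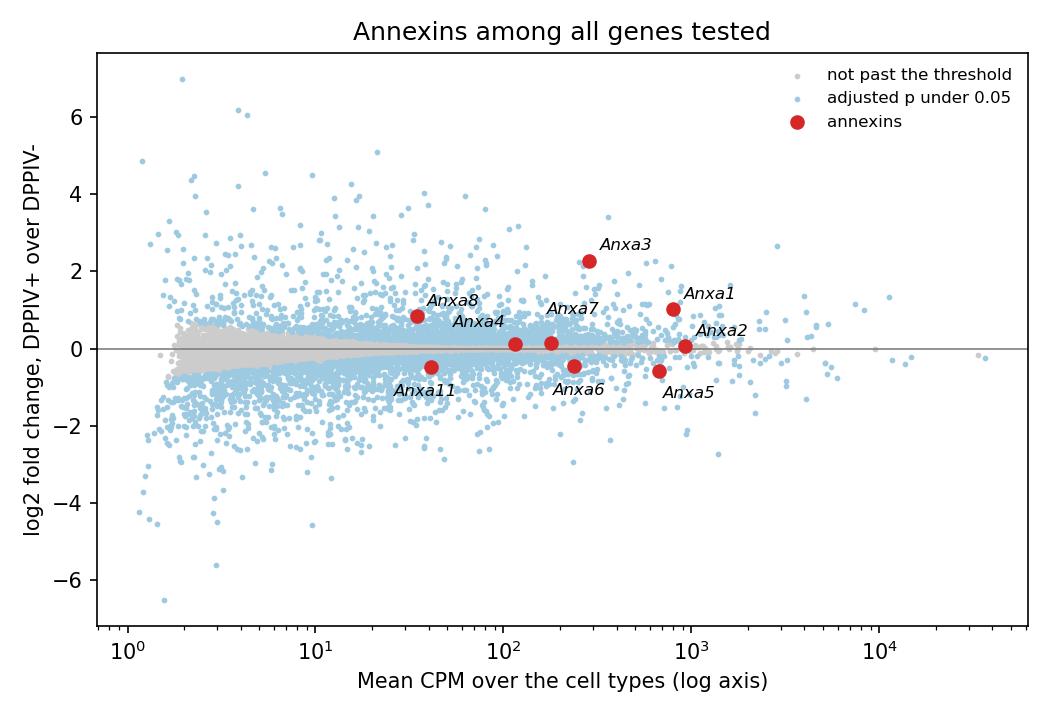
Log2 fold change of DPPIV+ over DPPIV- FAPs against the mean CPM (log axis) for the 11588 genes tested, with genes past the threshold in blue, the others in grey and the 9 annexins in red. Anxa3, at 2.28, stands among the few abundant genes with a large increase, and Anxa2 lies at 0.07 at a higher level.

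To show the sequence just before the start of the annexins that moved, promoter windows were taken from RefSeq on GRCm38.p6, which matched 7 of the 9 by symbol. Anxa3, which had the largest change, and Anxa6, which also moved, had no match and so no window. Given below are the 250 bases before the start for Anxa1 and Anxa8, which rose, and for Anxa5 and Anxa11, which fell. Capitals mark any match, on either strand, to a TATA box, spelled TATAAA, to a GC box, spelled GGGCGG, to the CCAAT box, spelled as named, or to an AP-1 site, spelled TGANTCA.
Anxa1 (chr19:20390672-20390921, minus strand): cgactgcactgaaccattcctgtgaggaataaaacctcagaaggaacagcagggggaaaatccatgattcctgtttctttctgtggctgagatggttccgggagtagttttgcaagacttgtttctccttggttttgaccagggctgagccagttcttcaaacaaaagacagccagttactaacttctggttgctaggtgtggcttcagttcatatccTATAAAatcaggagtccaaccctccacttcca
Anxa8 (chr14:34085729-34085978, plus strand): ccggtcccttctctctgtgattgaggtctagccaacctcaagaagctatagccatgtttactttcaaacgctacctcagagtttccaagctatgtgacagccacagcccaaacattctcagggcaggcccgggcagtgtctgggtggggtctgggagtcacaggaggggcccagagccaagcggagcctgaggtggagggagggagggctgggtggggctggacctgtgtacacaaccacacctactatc
Anxa5 (chr3:36475888-36476137, minus strand): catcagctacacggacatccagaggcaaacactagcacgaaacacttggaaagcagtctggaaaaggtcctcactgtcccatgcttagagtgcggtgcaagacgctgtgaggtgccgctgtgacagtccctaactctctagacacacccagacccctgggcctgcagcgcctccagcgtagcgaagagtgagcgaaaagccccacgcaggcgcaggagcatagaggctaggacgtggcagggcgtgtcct
Anxa11 (chr14:25841905-25842154, plus strand): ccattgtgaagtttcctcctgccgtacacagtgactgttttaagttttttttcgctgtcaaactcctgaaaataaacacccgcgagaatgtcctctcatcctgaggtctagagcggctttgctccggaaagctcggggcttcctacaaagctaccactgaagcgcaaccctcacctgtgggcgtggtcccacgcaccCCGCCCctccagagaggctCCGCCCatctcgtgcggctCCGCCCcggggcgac
The Anxa1 window held a TATAAA from 32 to 27 bases before the start. That of Anxa11 held 3 GC boxes, all read on the opposite strand. Neither the Anxa5 nor the Anxa8 window held any of these matches. Across 32841 RefSeq windows of the same length, 12.4% held the TATA box, 32.7% the GC box, 33.9% the CCAAT box and 6.75% the AP-1 site. Such matches describe the letters only, and their bearing on the annexin levels was not tested.

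Levels of different annexins were compared per length, as CPM per kb of the principal transcript. In DPPIV- FAPs, Anxa2 was the highest (582 and 671 CPM per kb in the mice), followed by Anxa5 (442 and 488) and Anxa1 (323 and 307). Then came Anxa6 at 110 CPM per kb in both mice. Anxa3 (68.8 and 54.1 CPM per kb) overlapped with its neighbours Anxa7 (59.8 and 60.1) and Anxa4 (53.0 and 56.2), and Anxa11 (19.3 and 20.6) and Anxa8 (14.5 and 11.9) closed the order. In DPPIV+ FAPs, Anxa1 (654 and 623 CPM per kb) overlapped with Anxa2 (607 and 705), and Anxa3 (329 and 267) overlapped with Anxa5 (285 and 337). Below them stood Anxa6 (79.9 and 81.3 CPM per kb), Anxa7 (67.4 and 64.2), Anxa4 (59.3 and 59.2), Anxa8 (23.5 and 23.7) and Anxa11 (14.2 and 14.6), none of which overlapped. With the length of all annotated exons in place of the principal transcript, Anxa5 led in DPPIV- FAPs (mean 453 CPM per kb, against 243 for Anxa2), and Anxa1 led in DPPIV+ FAPs (367, against 303 for Anxa5). As a group these are abundant transcripts: 7 of the 9 lay above the 90th percentile of level per length among all genes tested, and the exceptions were Anxa8 (73.4) and Anxa11 (71.5).

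The make-up of the annexin pool thus differed between the cell types. The 9 annexins together had 2884 and 3048 CPM in DPPIV- FAPs and 3580 and 3658 CPM in DPPIV+ FAPs, a ratio of 1.24 in mouse 1 and 1.20 in mouse 2. Per length, Anxa1 went from 18.3 ± 1.44% of the pool in DPPIV- FAPs to 29.8 ± 1.57% in DPPIV+ FAPs (SD, n = 2). Anxa3 went from 3.58 ± 0.759% to 13.9 ± 2.28%. In the opposite direction, Anxa5 went from 26.9 ± 0.717% to 14.5 ± 1.46%, Anxa6 from 6.38 ± 0.312% to 3.75 ± 0.0227%, and Anxa2 from 36.3 ± 2.07% to 30.5 ± 2.64%. Shares of one pool are bound to each other. With the length of all exons, Anxa5 went from 42.1% to 24.9%, and the Anxa2 share overlapped between the cell types (21.6% and 23.5% in DPPIV- FAPs, 19.8% and 22.1% in DPPIV+ FAPs). Within a library, Anxa1 had 0.707 and 0.609 reads per Anxa5 read in DPPIV- FAPs and 2.22 and 1.79 in DPPIV+ FAPs. For Anxa3 these read ratios to Anxa5 were 0.143 and 0.102, and 1.07 and 0.731. Such ratios need no scaling between libraries, and neither overlapped between the cell types.

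**Figure D4:**
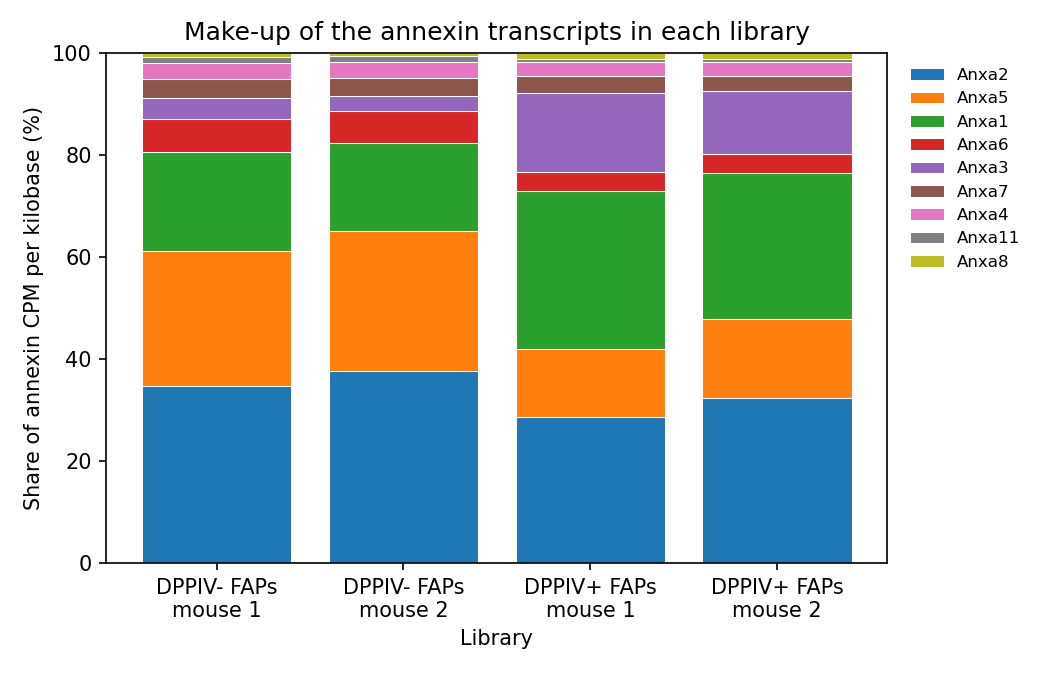
Share of each annexin in the summed CPM per kb of the 9, as a stacked bar (percent) for each of the 4 libraries. Anxa1 and Anxa3 take a larger part of the DPPIV+ bars (29.8% and 13.9% on average) than of the DPPIV- bars (18.3% and 3.58%), and Anxa5 takes a smaller part.

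The mice also differed in 2 of the 9 annexins, a share to be read beside the 8.98% of all genes called between mice in the same fit. Anxa3 was lower in mouse 2 than in mouse 1, by a log2 fold change of -0.32 (adjusted p = 0.000128, edgeR), and Anxa2 was higher by 0.21 (adjusted p = 0.0350, edgeR). DESeq2's Wald test called neither (adjusted p = 0.0647 for Anxa3 and 0.429 for Anxa2). For Anxa3, the gap between mice was small beside that between cell types.

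Genes that work with annexins were counted by lists. Of 16 S100 genes, small calcium-binding proteins of which several bind annexin tails, 8 were tested, and 3 rose and 2 fell in DPPIV+ FAPs (37.5% and 25.0%, beside 15.9% and 17.2% of all genes tested, with a median log2 fold change of 0.10). S100a11, the partner of Anxa1, went from 163 ± 10.5 to 233 ± 22.0 CPM (SD, n = 2), a log2 fold change of 0.52 (SE 0.07, adjusted p = 1.51e-13, edgeR). S100a16 (0.54) and S100a13 (0.41) rose by similar log2 fold changes. S100a10, the partner of Anxa2, had 425 ± 10.6 and 453 ± 34.0 CPM and, as Anxa2 itself, did not pass the test (log2 fold change 0.09, adjusted p = 0.351, edgeR). Anxa2 had 2.02 and 2.25 reads per S100a10 read in DPPIV- FAPs and 2.05 and 2.14 in DPPIV+ FAPs, which overlap. By contrast, the reads of Anxa1 per S100a11 read were 3.48 and 3.02 in DPPIV- FAPs and 5.03 and 4.19 in DPPIV+ FAPs, which do not. S100a6 (0.05) and S100a1 (0.11) did not pass the test.

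S100b and S100a4 were the S100 genes that fell. S100b, known also from glia, went from 5.07 to 2.13 CPM (log2 fold change -1.25, adjusted p = 2.56e-06, edgeR). The glial gene Cdh19 had 177 and 170 reads in DPPIV- FAPs and 45 and 38 in DPPIV+ FAPs (log2 fold change -1.90, adjusted p = 8.57e-17, edgeR), and the part of glial RNA in the S100b value was not tested. S100a4 had a log2 fold change of -0.28 (adjusted p = 3.00e-04, edgeR), and its adjusted p was 0.0692 without mouse in the model and 0.185 by DESeq2.

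In the plasminogen system, 2 of 6 tested genes rose and 2 fell (33.3% each, beside 15.9% and 17.2% of all genes, median -0.11). Plat, the tissue plasminogen activator that binds Anxa2, went from 260 ± 2.86 to 460 ± 67.3 CPM (SD, n = 2), a log2 fold change of 0.82 (SE 0.07, adjusted p = 2.81e-31, edgeR). Its log2 ratio was 0.95 in mouse 1 and 0.68 in mouse 2. The urokinase receptor Plaur (0.38) and urokinase itself, Plau (-0.19), passed in the model with mouse but neither in the model without it nor by DESeq2, which leaves 2 genes called in this list.

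Of 14 tested membrane repair genes, 7 rose and 4 fell (50% and 28.6%, beside 15.9% and 17.2% of all genes, median 0.12). By DESeq2, or without mouse in the model, 7 were called in all. Myof, the ferlin myoferlin, went from 173 ± 12.8 to 274 ± 1.79 CPM (log2 fold change 0.66, adjusted p = 1.35e-21, edgeR). Its relative Dysf (dysferlin), the ferlin of muscle fibre repair, was low and went from 7.15 ± 1.51 to 2.43 ± 0.603 CPM (-1.55, adjusted p = 7.90e-11, edgeR), so these ferlins moved in opposite directions. Ehd1, a membrane-shaping ATPase, rose by 0.69 and the caveolar protein gene Cav1 had a log2 fold change of -0.67. Among the 4 penta-EF-hand genes, Pdcd6 (0.10), Sri (0.07) and Pef1 (-0.06) did not pass the test. Gca (grancalcin) passed (25% of the list higher, beside 15.9% of all genes), at 12 to 43 reads per library (log2 fold change 1.38). DESeq2 did not call Gca (adjusted p = 0.155), and a filter of 2 CPM in 3 libraries left it out.

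Of 15 genes for the exposure and recognition of phosphatidylserine, 3 rose, 5 fell and 7 did not pass (20.0% higher and 33.3% lower, beside 15.9% and 17.2% of all genes, median -0.05). Gas6, a bridging protein that like Anxa5 binds phosphatidylserine, went from 520 ± 32.3 to 181 ± 44.0 CPM (log2 fold change -1.54, adjusted p = 2.42e-104, edgeR). Of its receptors, Axl went from 1723 ± 91.8 to 2846 ± 41.2 CPM (0.73). Mertk and Tyro3 were lower in DPPIV+ FAPs, at far lower levels than Axl. Mertk went from 9.42 ± 0.345 to 5.13 ± 0.736 CPM (-0.88) and Tyro3 from 25.5 ± 1.77 to 16.9 ± 0.381 CPM (-0.59). Copines are another family of calcium-dependent phospholipid-binding proteins. Of 5 tested copines, 2 were higher and 1 lower (40.0% and 20.0%, beside 15.9% and 17.2% of all genes, median 0.05). Cpne8 rose by 0.78 and Cpne7, with 51 and 59 reads in DPPIV- FAPs and 7 and 11 in DPPIV+ FAPs, had a log2 fold change of -2.45. Cpne7 passed the filter through its DPPIV- libraries only, and a filter of 2 CPM in 3 libraries left it out. Cpne2 (0.23) lost its call by DESeq2 (adjusted p = 0.439) and without mouse in the model (0.104). Over all lists, 18 of 52 tested genes rose and 14 fell (34.6% and 26.9%, beside 15.9% and 17.2% of all genes), at a median of 0.05, and DESeq2 called 21 of these 32.

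**Figure D5:**
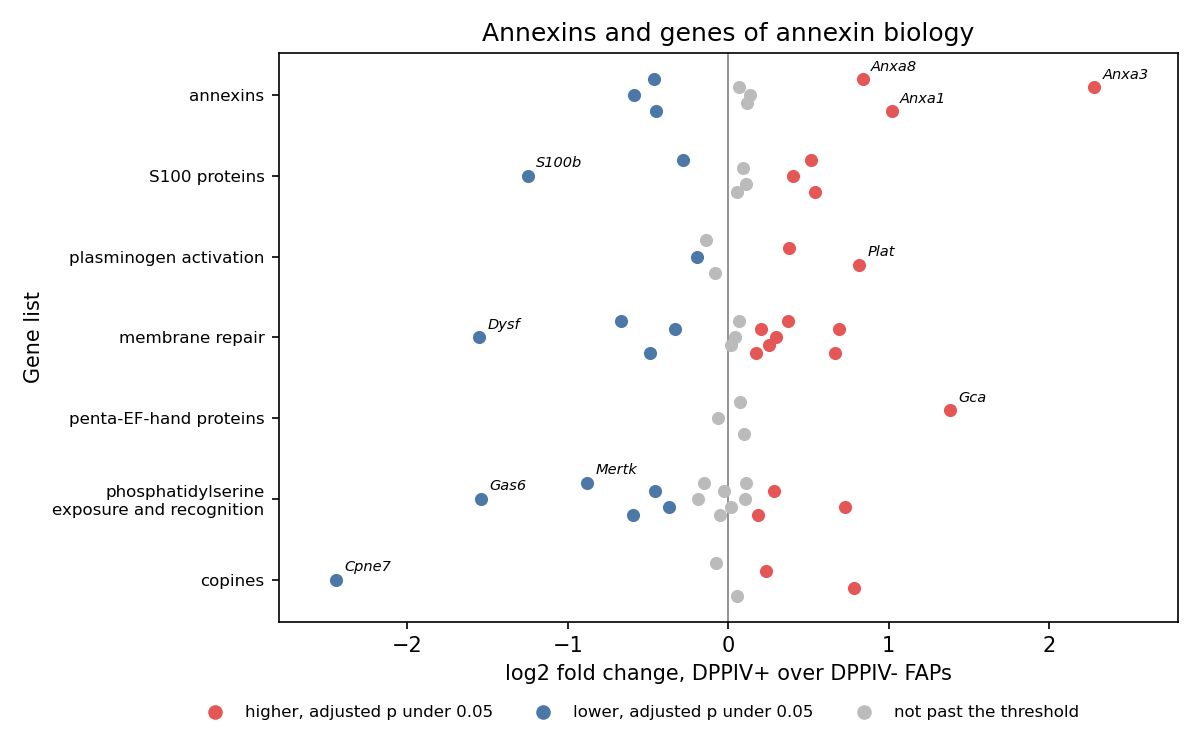
Log2 fold change of DPPIV+ over DPPIV- FAPs for the annexins and for the tested genes of the lists, by list and without 1 gene that is not reported here, with genes past the threshold higher in red, lower in blue and the others in grey. Most lists hold genes on both sides of 0, from Cpne7 at -2.45 to Gca at 1.38, and no listed gene reaches Anxa3 at 2.28. Cpne7 and Gca each passed the filter through 1 cell type only.

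Markers of other cell types moved too, and their counts are to be read beside 15.9% of all genes tested higher and 17.2% lower. Of 5 tenocyte markers, Fmod (log2 fold change 2.26), Scx (2.14), Mkx (1.44) and Tnmd (1.27) were higher in DPPIV+ FAPs, as Anxa3 was. Thbs4 (-0.20) was lower. Scx, with 18 and 34 reads in DPPIV- FAPs and 66 and 143 in DPPIV+ FAPs, passed the filter through its DPPIV+ libraries only. In DPPIV+ FAPs of mouse 1 and then mouse 2, Fmod had 689 and 1444 CPM and Tnmd 53.0 and 89.5, and Anxa3 had 525 and 427. All 5 tenocyte markers summed to 1798 and 2391 CPM in DPPIV- FAPs and 1902 and 3767 CPM in DPPIV+ FAPs. Most of that sum was Thbs4, with 1602 and 2096 CPM in DPPIV- FAPs and 1153 and 2217 CPM in DPPIV+ FAPs. Of 6 mural cell markers 5 were lower, with sums of 121 and 123 CPM in DPPIV- FAPs and 51.2 and 63.5 CPM in DPPIV+ FAPs. Kcnj8, counted among these 5, had 102 and 78 reads in DPPIV- FAPs and 30 and 34 in DPPIV+ FAPs. It passed the filter through its DPPIV- libraries only. Endothelial markers (3 of 5 lower, sums 34.8 to 64.4 CPM) and macrophage markers (3 of 5 lower, 166 to 294 CPM) were highest in the DPPIV- library of mouse 1. None of 5 myofibre markers passed (47.2 to 74.9 CPM), 1 of 2 tested perineurial markers was lower (14.3 to 18.1 CPM), and 5 mesothelial markers summed to 0.256 to 1.78 CPM. The lower perineurial marker, Cldn1, had 68 and 65 reads in DPPIV- FAPs and 20 and 17 in DPPIV+ FAPs. Like Kcnj8, it passed the filter through its DPPIV- libraries only. The part of these other cell types in the annexin values was not tested.

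The genes most like Anxa3 over the 4 libraries, by the Euclidean distance of centred log2 CPM, were Ildr2 (0.105), Figf (0.111) and Uchl1 (0.120). Ildr2, for instance, had 609 and 491 reads in DPPIV- FAPs and 2695 and 2118 in DPPIV+ FAPs, with mouse 1 higher as for Anxa3. Nearest to Anxa5 were Ptpn3 (0.0437), Myh9 (0.0458) and Mgat4a (0.0515), which had lower levels in DPPIV+ FAPs and higher levels in mouse 2, although Mgat4a was not called by DESeq2 (adjusted p = 0.106). With 4 libraries this likeness describes these samples only.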

How the data were processed

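Bulk RNA of 4 libraries was sequenced (2 cell types from each of 2 mice). Per the paper, the authors used bcl2fastq 2.20 for demultiplexing, STAR with mm10 for alignment and RnaReadCounter for counting, and they deposited raw counts per gene symbol, without normalization or filtering. The labels name a NEBNext kit and the paper's methods a TruSeq kit, and the annotation release is not given in the sources used here.

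Counts were analysed in R 4.3.3 with edgeR 4.0.16. The filter of 2 CPM in 2 or more libraries kept 11588 of 24421 genes, which were scaled by TMM and fitted with mouse and cell type, as in the study's own model. The quasi-likelihood F test was two-sided, with Benjamini-Hochberg adjusted p-values called at 0.05. As the prior degrees of freedom came out infinite and 1 residual degree was left, the spread was taken from the trend over genes and p-values of abundant genes are very small. The SE is the size of the log2 fold change over the square root of F. Ratios per mouse used a prior count of 0.125. The labels tie each number to 1 animal, and the mice's differences in the 2 cell types correlated at 0.415 over genes (not independent points).

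Alternatives were DESeq2 1.42.0, no block, RLE and upper-quartile scaling, no filter, 2 CPM in 3 libraries, robust moderation, each mouse left out, a null of a 1.5-fold change and the likelihood ratio test. The calls over the partner lists under these were added after seeing the data. Lengths and positions came from GENCODE M21 on GRCm38 (a length for 96.53% of the genes kept) and promoters from RefSeq. Similar transcripts were searched with BLAST 2.17.0. The scripts were first tested on simulated counts.

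Named genes are the 9 annexins and the other annexin symbols, up to 4 genes past the threshold per list by size of change with 1 direction in both mice, textbook S100 partners, Dpp4, and the 3 genes nearest to Anxa3 and to Anxa5. List members outside this rule that did not pass are given beside their list. The glial marker sum and 1 listed gene are not reported here. The annexins and all lists were chosen with earlier results of these data known.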

Additional observations from a re-analysis of the deposited data

How the results depend on the processing

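Of 3826 genes past the threshold, DESeq2 called 1918, the model without the replicate block (mouse) 2120 and the test against a 1.5-fold change 1092. The same 6 annexins passed in each alternative with a test, except that 3 passed against a 1.5-fold change. Leaving out the block changed no annexin call, but the adjusted p (edgeR) was then 9.25e-05 for Anxa3 and 2.44e-04 for Anxa1. Across alternatives the log2 fold change of Anxa3 ranged from 2.24 to 2.29, of Anxa1 from 0.98 to 1.03, of Anxa8 from 0.80 to 0.85, of Anxa5 from -0.63 to -0.57, of Anxa6 from -0.49 to -0.44 and of Anxa11 from -0.51 to -0.45. Of the 2 annexins that differed between the mice, DESeq2 called 0 (3 of 9 at an unadjusted p under 0.05), the test against a 1.5-fold change 0 (0 unadjusted), and upper-quartile scaling and the likelihood ratio test 1 each (Anxa3). Of 32 list genes called, DESeq2 called 21 and the test against a 1.5-fold change 8. No named gene past the threshold changed direction under any of these, and Anxa9, which did not pass, was at -0.09 without mouse 1 against 0.15 with both. Dpp4, at a log2 fold change of 3.41, was called in the main fit but not under robust moderation (adjusted p = 0.178, edgeR). The log2 ratio of Dpp4 was 3.02 in mouse 1 and 3.86 in mouse 2. The cause of these shifts was not tested, other than that the 1.5-fold test asks for a larger change. Leaving out a mouse leaves 1 library per cell type and no test, and the annexin log2 ratios are then those given per mouse. With 2 mice, a difference as small as those of Anxa2, Anxa4 and Anxa7 could not be told from 0 after adjustment.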
